A study of Mus musculus with 74 samples.

Results

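Spinal cord microglia of SOD1-G93A mice were compared between the onset of disease and the early symptomatic stage, from 5 onset libraries and 4 early symptomatic libraries. These 9 libraries were taken by their stage labels from 74 in the series. They belong to a table of 51 libraries from non-grafted animals, of which 33 are microglia. The series also holds sciatic nerve macrophages and mice with bone-marrow grafts, which are not used here.

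All mice were female. The G93A mice carry a mutant human SOD1 transgene (hSOD1-G93A) on a C57BL/6J background and model amyotrophic lateral sclerosis, a fatal loss of motor neurons. The labels place onset at the peak of body weight (mean age 105 days) and the early symptomatic stage at a weight loss of 10% (mean age 152.6 days), so stage and age differ together and cannot be told apart within G93A. Controls in the same table were mice carrying an unmutated human SOD1 transgene (WT) at mean ages of 107.3 and 165.4 days and C57BL/6J mice without a transgene (B6) at 109.8 and 165.6 days, with 4 libraries each. G93A microglia before symptoms (50.8 days) and at end stage (169.4 days) gave 4 libraries each. Each library came from the spinal cord of 1 mouse, so replicates are separate animals. Cells were freed without enzyme digestion in the cold, cleared of myelin on a Percoll gradient and captured on CD11b magnetic beads. Neutrophils and monocytes carry CD11b as well. Values are FPKM, which scale fragment counts by transcript length and by library size, and the read depth behind them is unknown.

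Microglia are the resident macrophages of the central nervous system. In undisturbed tissue they carry receptors such as P2ry12 and Cx3cr1 and survey their surroundings. Near dying neurons or lost myelin they switch to a program called disease-associated, which in mice depends on the lipid-sensing receptor Trem2 and its signalling adaptor Tyrobp. That program raises genes of phagocytosis, of the lysosome and of lipid transport, and mutant SOD1 mice are among the models in which it was described.

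The onset libraries did not resemble each other as the early libraries did. Pearson's r between libraries on the log2(FPKM + 1) scale ran from 0.580 to 0.988 within onset (median 0.693 over 10 pairs) and from 0.883 to 0.982 within early (median 0.952 over 6 pairs). Summed FPKM of 11 oligodendrocyte markers were 32307 and 25857 in onset libraries 1 and 4, 2147, 835 and 2954 in onset libraries 2, 3 and 5, and 13328, 1858, 10889 and 13710 in early libraries 1 to 4. Astrocyte marker sums (11 genes) split the libraries the same way, at 10450 and 10928 in onset libraries 1 and 4, 255 to 832 in the other onset libraries, 636 in early library 2 and 5241 to 8253 in the other early libraries. Genes of the mitochondrial genome held 11.7% and 10.2% of FPKM in onset libraries 1 and 4, 0.735% to 1.60% in onset libraries 2, 3 and 5, and 2.09% to 8.92% in early libraries. The 2 stages thus overlapped in all of these measures, and the mitochondrial share averaged 5.04% ± 5.41 at onset (SD, n = 5) and 5.42% ± 2.83 in early disease (n = 4; difference of means 0.386 percentage points, exact two-sided permutation test over 126 splits, p = 0.9127, smallest p possible 0.0159).

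Onset library 5 stood apart in another way. S100a8, a calcium-binding protein abundant in neutrophils, was at 39129 FPKM there and at 72.7 to 346 FPKM in the other onset libraries. Its summed neutrophil, monocyte and erythroid markers were 72046, 5251 and 24015 FPKM, against at most 1080, 62.2 and 623 in the other onset libraries. All 10 microglia markers were present in all 9 libraries, with sums of 1972 to 19773 FPKM at onset and 6255 to 13242 FPKM in early disease, lowest in onset libraries 1 and 4. The part that these transcripts of other cells have in the differences below was not tested beyond the fits given beside them, and in bulk samples fewer cells of a type and less RNA per cell cannot be told apart.

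**Figure D1:**
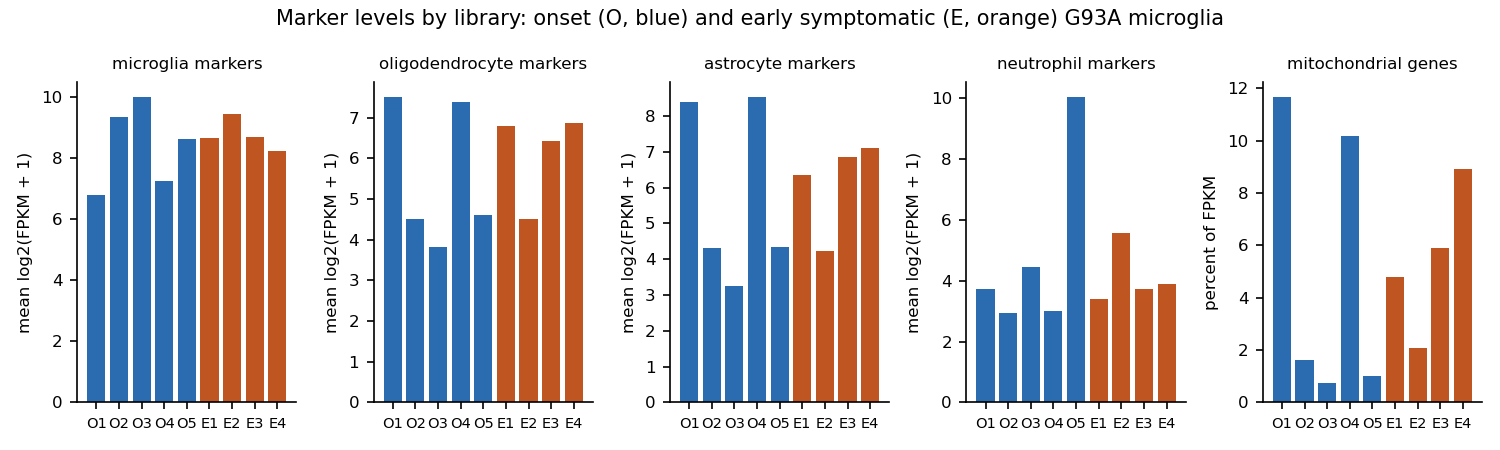
Mean log2(FPKM + 1) of 4 marker lists and percent of FPKM from mitochondrial genes, 1 bar for each of the 5 onset (O) and 4 early symptomatic (E) libraries. Onset libraries 1 and 4 are high in oligodendrocyte and astrocyte markers and in mitochondrial transcripts, and onset library 5 in neutrophil markers.

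Of 11750 named genes tested, 68 were higher and 31 lower in early symptomatic than in onset microglia at an adjusted p under 0.05 (limma on log2(FPKM + 1), Benjamini-Hochberg), which is 0.579% and 0.264% of the genes tested. The median log2 difference over all genes was 1.07e-04. Of the 99 genes, 33 were at least 2-fold higher and 3 at least 2-fold lower on that scale. For 70 genes every early library was above every onset library (0.596% of genes), and for 152 every early library was below (1.29%). Where no gene differs, 1 in 126 genes would separate the groups in each direction. The share above was smaller than this and the share below larger. Both conditions, a call and no overlap, held for 25 higher and 26 lower genes. The number of calls depended on which libraries entered. It was 491 without onset library 2, 63 without onset library 3, 44 without onset library 4, 53 without early library 2, and 25 without early library 3 or without early library 4. It was 0 with only the 9 libraries in the fit, where 425 of 11636 genes had an unadjusted p under 0.05 against 1488 here. Those 425 are under the share of 0.05 to be expected where no gene differs. The calls here use a spread shared by all 8 groups of the fit. Onset libraries spread more than early ones (median SD of log2(FPKM + 1) 0.65 against 0.29), so SE and p may understate the onset spread. Each of the 99 genes kept its direction in every fit above in which it was tested. These fits reuse most of the libraries by which the 99 were chosen, so a change of sign was unlikely from the start. Of the 99, 23 were still called without early library 3, 25 without early library 4 and 0 with the 9 libraries alone.

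Genes of the disease-associated program had the largest differences between the stages. In 1 onset library all 28 genes listed were already at the early level, and in another 13 of them were. All 28 genes of the disease-associated list had a log2 difference above 0 (median 1.40, range 0.91 to 4.18). Of the 28, 3 were called higher and 0 lower, and 24 had an unadjusted p under 0.05. Over all 11750 genes tested, 68 were called higher, and 792 were higher with an unadjusted p under 0.05. Gpnmb, Igf1 and Apoe were the members called. Onset library 2 held all 28 genes at or above the lowest early library, and 15 of the 28 above the highest early library. Onset library 3 held 13 of the 28 at or above the lowest early library and 0 above the highest. Onset library 5 held 2 at or above the lowest, and onset libraries 1 and 4 held 0.

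Gpnmb (chromosome 6, 49036518 to 49070929, mm10) encodes a membrane glycoprotein of the lysosomes of phagocytes. It was at 12.45, 635, 22.8, 5.21 and 12.15 FPKM in onset libraries 1 to 5 and at 453, 417, 764 and 443 FPKM in early libraries 1 to 4. Library 2 was the high one at onset, within the early range, and the other 4 onset libraries were far below it. The difference was 4.18 ± 0.88 (log2, SE; limma, adjusted p = 0.0188), from group means of 138 ± 278 and 519.6 ± 164 FPKM (SD, n = 5 and 4), and it was 5.31 ± 0.64 without onset library 2 (adjusted p = 8.5e-06). The library left out was the highest at onset, so a larger difference without it was fixed from the start. Controls had at most 38.1 FPKM, and end-stage G93A microglia had 1391 ± 720 FPKM.

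The start of the Gpnmb gene is shown because it carries the largest difference. The bases are those of the RefSeq annotation of GRCm38.p6, chr6:49036268-49036567 on the plus strand, from 250 bases before to 50 bases after the start site, with matches of TGACTCA or TGAGTCA (the AP-1 site) and of TTTCNNTTT (the core of the interferon response element), searched on both strands, in capitals.
Gpnmb: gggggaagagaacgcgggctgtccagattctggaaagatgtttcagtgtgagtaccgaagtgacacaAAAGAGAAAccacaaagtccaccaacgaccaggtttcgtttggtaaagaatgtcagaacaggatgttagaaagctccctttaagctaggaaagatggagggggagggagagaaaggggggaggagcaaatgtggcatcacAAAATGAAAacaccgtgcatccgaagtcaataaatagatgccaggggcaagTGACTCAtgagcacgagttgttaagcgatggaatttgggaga
The AP-1 letters begin at base 259 of this window and the 2 interferon core matches at bases 68 and 208, with no overlap between them. An AP-1 match was found in 5.2% of 32851 mouse promoter windows of this length and in 4 of 29 windows of the 24 disease-associated genes that have an entry. An interferon core match was found in 10.55% of all windows and in 10 of those 29. These matches are a description of letters and say nothing of binding.

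Igf1, a growth factor that microglia secrete, was at 0.68, 29.0, 4.81, 0.58 and 1.44 FPKM at onset and at 17.7, 25.6, 21.0 and 16.9 FPKM in early disease. Again onset library 2 was above all early libraries and the rest were below them. The difference was 2.37 ± 0.52 (log2, SE; limma, adjusted p = 0.0248). Apoe (chromosome 7, 19696109 to 19699188), the lipid carrier that disease-associated microglia export, was at 2835, 23733, 5318, 3217 and 970 FPKM at onset and at 17374, 21453, 18112 and 13850.2 FPKM in early disease. Onset library 2 was the highest of all 9 libraries, and the other onset libraries lay below every early one. Apoe was higher by 2.10 ± 0.49 (limma, adjusted p = 0.0338), and in the controls it was at 1960 to 3598 FPKM. Its neighbour Apoc1, an apolipoprotein of the same cluster, was at 7.24 to 20.5 FPKM in the onset libraries other than library 2, at 78.9 FPKM in that library and at 62.4 to 87.3 FPKM in early disease (1.85 ± 0.39, adjusted p = 0.0188).

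**Figure D2:**
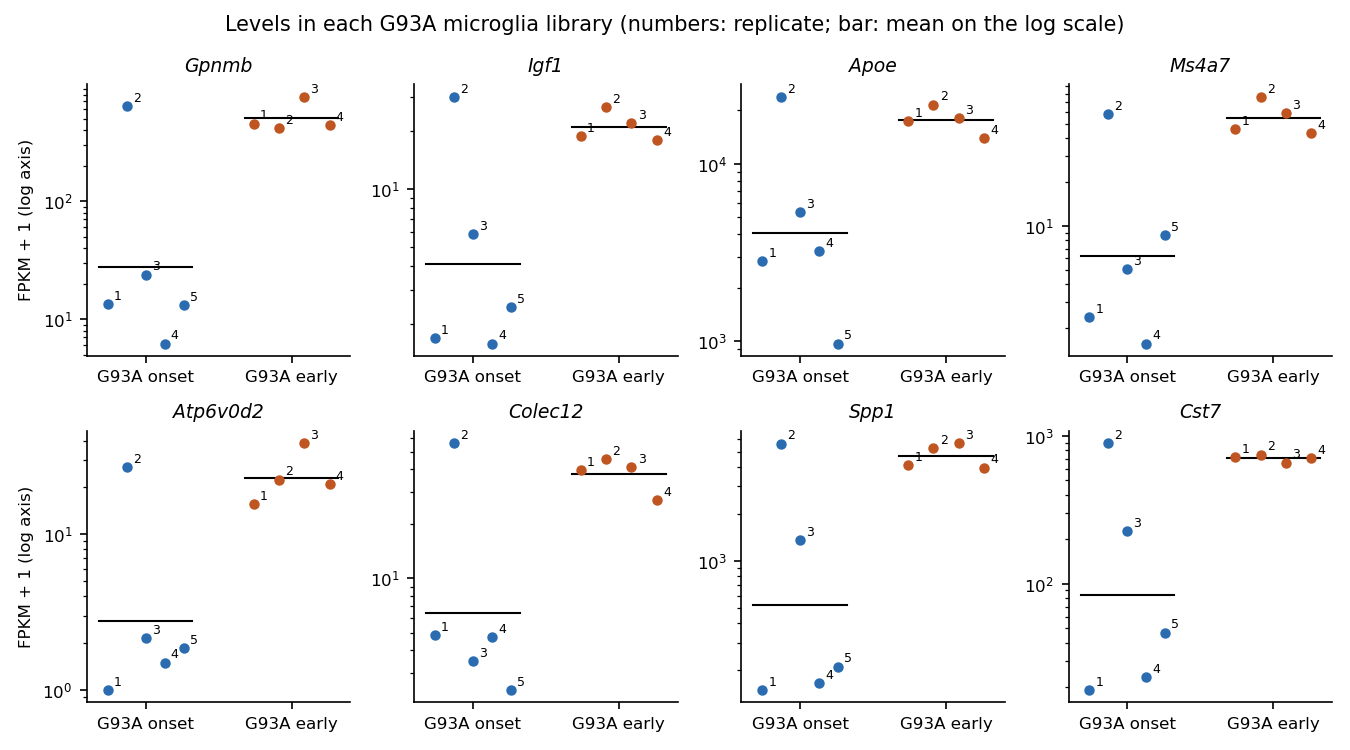
FPKM + 1 on a log axis of 8 genes in each of the 5 onset and 4 early symptomatic libraries, numbered by replicate, with the group mean on the log scale as a bar. Onset library 2 lies within or above the early libraries for every gene shown, and the other 4 onset libraries lie below them.

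Other genes of the list had large differences that did not pass. Spp1, which encodes the secreted matrix protein osteopontin, was at 149, 5620.65, 1365, 165 and 210.2 FPKM at onset and at 4111, 5276, 5639 and 3950 FPKM in early disease (log2 difference 3.16 ± 0.87, adjusted p = 0.0763). Cst7, an inhibitor of lysosomal cathepsins, was at 18.1, 890, 226, 22.2 and 45.8 FPKM at onset and at 719, 747, 660 and 711 FPKM in early disease (3.08 ± 0.78, adjusted p = 0.053). Library 2 again reached the early level in both genes, and library 3 stood between it and the rest. Itgax, the integrin CD11c, had a difference of 2.25 ± 0.59 (adjusted p = 0.065), and Clec7a, a receptor for fungal glucans, one of 1.92 ± 0.71 (adjusted p = 0.2132). Lgals3, a galactose-binding lectin, had a difference of 1.82 ± 0.84 (adjusted p = 0.3589).

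The receptor at the head of the program and its adaptor did not pass. Trem2 was at 124, 1528, 1539, 171 and 555 FPKM at onset and at 1040.4, 1610.5, 1208 and 889 FPKM in early disease (1.24 ± 0.65, adjusted p = 0.4425). Tyrobp, its adaptor, was at 288, 4339, 3164, 309 and 2174 FPKM at onset and at 2809, 4155, 3161 and 2695 FPKM in early disease (1.38 ± 0.67, adjusted p = 0.3948). Onset library 3 was within the early range for both genes, and onset library 2 was within it for Trem2 and above it for Tyrobp. Onset libraries 1, 4 and 5 lay below every early library for both, lowest in libraries 1 and 4, whose microglia marker sums were lowest too.

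Leaving out onset library 2 raised the number of disease-associated genes called higher from 3 to 20 of 28, with a median of 1.83, and Spp1 (4.01 ± 0.77, adjusted p = 0.0023), Cst7 (3.93 ± 0.66, adjusted p = 0.0005), Itgax and Clec7a then passed. Library 2 was the highest onset library for 26 of the 28 and was picked out by these values. Larger differences and more calls without it were therefore likely from the start. With terms for the oligodendrocyte and the neutrophil marker score of a library, all 28 were called higher, with a median of 1.87. With onset libraries 2, 3 and 5 only, which are low in myelin transcripts, 4 of 28 were called and the median was 0.70. With library quality weights, 1 of 28 was called and the median was 0.13. Over all genes tested, these 4 fits in turn called 358 of 11763, 1561 of 11750, 1831 of 11738 and 2293 of 11750 higher. Over 23 alternatives Gpnmb was called in 17, Igf1 in 12 and Apoe in 11, and their smallest differences, with library quality weights, were 1.98 (adjusted p = 0.0529), 0.60 (adjusted p = 0.225) and 0.62 (adjusted p = 0.1999). Set against the mean of the microglia markers in the same library, the mean log2 level of the list was 0.11 in onset library 2 and -1.74 to -0.92 in the other onset libraries, against -0.09 to 0.51 in early and 0.60 to 0.97 in end-stage libraries. The libraries before symptoms and of both control strains ran from -3.0 to -1.03 on this measure. Before symptoms it was -1.03 in library 1 (microglia marker mean 6.57) and -3.0 in library 4 (8.61). In B6 mice of onset age it was -1.23 in library 2 (5.41) and -2.54 in library 3 (7.86). WT mice of end-stage age did not keep this order. Libraries that differ in microglia markers, such as onset libraries 1 and 4 against 3, are therefore hard to compare on it.

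Other called genes were high in onset library 2 too. It was at or above the lowest early library for 39 of the 68 genes called higher. Each other onset library was so for 1 to 3 of them. The 68 were chosen by their difference between these same libraries, so low counts in most onset libraries were likely from the start. Atp6v0d2 (chromosome 4, 19876838 to 19922606), a subunit of the proton pump that acidifies lysosomes, was at 0, 26.1, 1.16, 0.50 and 0.87 FPKM at onset and at 14.6, 21.4, 37.4 and 19.98 FPKM in early disease (3.05 ± 0.57, adjusted p = 0.0102). Colec12, a scavenger receptor with a collagen stalk and a lectin head, was at 54.7 FPKM in onset library 2, at 1.41 to 3.83 FPKM in the other onset libraries and at 25.97 to 44.8 FPKM in early disease (2.56 ± 0.53, adjusted p = 0.0181). Ms4a7, a membrane protein of macrophages and a marker of those at the borders of the brain, was at 56.9 FPKM in onset library 2, at 0.57 to 7.67 FPKM in the other onset libraries and at 41.9 to 75.3 FPKM in early disease (3.13 ± 0.69, adjusted p = 0.0248). It was the 1 border macrophage marker called of 6 tested, and the summed level of that list was 9.57 to 126 FPKM at onset and 68.0 to 125 FPKM in early disease.

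Further called genes of this kind were named after their values were seen. Il3ra, the alpha chain of the interleukin-3 receptor, was at 0.40 to 2.04 FPKM in the onset libraries other than library 2, at 8.51 FPKM in library 2 and at 8.25 to 13.8 FPKM in early disease (2.04 ± 0.38, adjusted p = 0.0102). Pianp, a ligand of the inhibitory receptor PILR alpha, was at 0.33 to 2.92, at 18.3 and at 13.75 to 19.3 FPKM in the same order (2.17 ± 0.41, adjusted p = 0.0102). Mamdc2, at 13.4 FPKM in onset library 2 and at most 0.87 FPKM in the other onset libraries, reached 8.50 to 12.7 FPKM in early disease (2.29 ± 0.46, adjusted p = 0.0132). Cd200r4, a receptor of the CD200R family, was at 35.5 FPKM in onset library 2, at 0.39 to 4.76 FPKM in the others and at 20.6 to 31.1 FPKM in early disease (2.63 ± 0.56, adjusted p = 0.0233).

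Among other gene groups, most members lay above 0 and few were called. Of 25 lysosome genes, 1 was called higher (Atp6v0d2) and 0 lower, with all 25 above 0 and a median of 1.05. The count was 8 without onset library 2 (358 of all 11763 genes) and 22 with the marker score terms (1561 of all 11750 genes). It was 1 both with onset libraries 2, 3 and 5 only, where the median was 0.15, and with library quality weights, where the median was -0.19 and 6 of the 25 lay above 0. Of 16 genes of lipid efflux and storage, 2 were called higher (Apoe and Apoc1), with a median of 0.95, and 8 without onset library 2. The median of the lipid list was 0.64 with onset libraries 2, 3 and 5 only and 0.29 with library quality weights. Onset library 2 had the highest mean level of the lysosome and lipid lists at onset, so leaving it out favoured more calls in both. The list for chemokine ligands (11 tested) had a median of 1.20, that for complement and Fc receptors (16) of 0.83, that for MHC class II (10) of 0.76, that for type I interferon response (27) of 0.74 and that for MHC class I (12) of 0.65, each with 0 genes called. In the same order 6, 3, 0, 10 and 2 of them had an unadjusted p under 0.05, all higher in early disease where there were any. Of all 11750 genes, 792 were higher at that threshold. With the marker score terms these 5 lists had 9, 12, 7, 15 and 12 genes called higher and 0 lower. With onset libraries 2, 3 and 5 only, their medians were 0.34, -0.35, -0.33, -0.04 and -0.21, so the direction of the last 4 turned with the libraries chosen. With library quality weights all 5 turned, at -0.13, -0.33, -0.29, -0.38 and -0.17.

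Values of 5 members of these groups follow. Ccl7, a chemokine for monocytes and the chemokine ligand nearest to a call, was at 0.13 FPKM in onset library 1, at 0.62 to 2.26 FPKM in the other onset libraries and at 3.73, 8.22, 1.79 and 2.47 FPKM in early disease (1.20 ± 0.37, adjusted p = 0.1108). B2m, the light chain of MHC class I, was at 567, 5646, 3983, 693 and 2062 FPKM at onset and at 3695 to 6747 FPKM in early disease (1.37 ± 0.53, adjusted p = 0.244). Cxcl16, a membrane-bound chemokine, was at 17.7 and 29.2 FPKM in onset libraries 1 and 4 and at 53.4 to 220.3 FPKM in the other onset libraries, against 138 to 244 FPKM in early disease (1.49 ± 0.57, adjusted p = 0.2391). Cd74, the invariant chain of MHC class II, was at 52.2 to 928 FPKM at onset and at 404 to 1164 FPKM in early disease (1.30 ± 0.72, adjusted p = 0.486). Ifit3, an interferon-induced protein, was at 171 and 89.2 FPKM in early libraries 1 and 4 but at 40.5 and 27.8 FPKM in early libraries 2 and 3, against 18.3 to 41.95 FPKM at onset (0.98 ± 0.32, adjusted p = 0.1462). All 5 genes overlapped between the stages. Onset libraries 1 and 4 were the lowest 2 for B2m, Cxcl16 and Cd74, but not for Ccl7, and for Ifit3 the early libraries differed most among themselves.

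**Figure D3:**
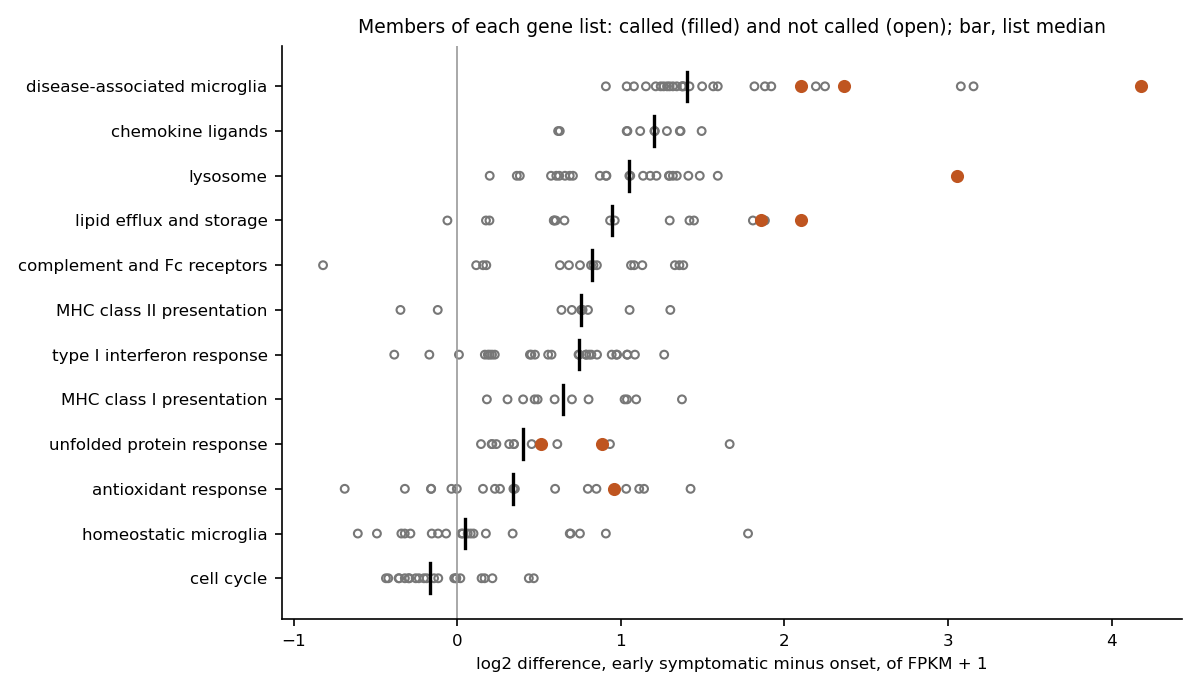
Log2 difference (early symptomatic minus onset, FPKM + 1) of each tested member of 12 gene lists, with called genes filled and list medians as bars. The disease-associated list has a median of 1.40 and the homeostatic list, with 0 genes called, one of 0.05.

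Genes of resting microglia gave no call. Of 20 homeostatic genes 0 were called, with a median of 0.05 and 12 above 0, and 1 had an unadjusted p under 0.05. With the marker score terms 3 were called higher, in a fit that called 1561 of all 11750 genes higher. The median was -0.73 with onset libraries 2, 3 and 5 only (2 of 20 above 0) and -0.80 with library quality weights (1 of 20 above 0), with 0 called in both. P2ry12, the receptor that senses ATP and ADP from damaged cells, was at 216, 565, 2121, 257 and 896 FPKM at onset and at 292, 812, 439 and 257 FPKM in early disease (-0.49 ± 0.61, adjusted p = 0.8403). Tmem119 (-0.34 ± 0.61, adjusted p = 0.9062), Cx3cr1 (0.03 ± 0.59, adjusted p = 0.9925) and the bead target Itgam (0.16 ± 0.54, adjusted p = 0.9551) did not pass either, nor did Ptprc, the leukocyte antigen CD45 (0.45 ± 0.59, adjusted p = 0.8544). Onset library 3 was the highest in P2ry12, Tmem119 and Cx3cr1, and onset libraries 1 and 4 were the lowest or among the lowest. Fcrls, an Fc receptor-like gene of microglia, was at 57.8 to 1487 FPKM at onset and at 839 to 1344 FPKM in early disease (1.78 ± 0.71, adjusted p = 0.2631).

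By a rule of size, the 12 largest rises and 12 largest falls were taken among genes that were called, reached a mean of 5 FPKM in the higher group and did not overlap between stages. By that rule no onset library, library 2 included, reached the early level. Hebp1 (chromosome 6, 135137515 to 135168215), which binds heme, was at 1.90, 4.84, 3.01, 1.10 and 1.18 FPKM at onset and at 6.80, 9.06, 9.06 and 8.84 FPKM in early disease (1.57 ± 0.24, adjusted p = 0.0013). Rab5c (chromosome 11, 100715003 to 100738215), a small GTPase of early endosomes, was at 3.78 to 5.90 FPKM at onset and at 9.49, 16.4, 19.5 and 25.1 FPKM in early disease (1.58 ± 0.27, adjusted p = 0.005). Lgals1, a galactose-binding lectin, was at 12.7 to 38.8 FPKM at onset and at 44.6 to 54.0 FPKM in early disease (1.20 ± 0.24, adjusted p = 0.0172). Capns1, the regulatory subunit of calpain proteases, went from 36.4 ± 11.8 to 75.9 ± 10.9 FPKM (1.09 ± 0.20, adjusted p = 0.0102). Rtn4, which encodes the myelin-associated growth inhibitor Nogo and is made by many cells, went from 27.9 ± 12.4 to 52.8 ± 3.92 FPKM (0.99 ± 0.19, adjusted p = 0.0115).

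The smaller rises of that set lay between 0.71 and 0.90 on the log2 scale. Szrd1 (0.90 ± 0.21), Trappc10, a subunit of a vesicle tethering complex (0.83 ± 0.19), Selt, a selenoprotein (0.73 ± 0.14), and Hscb, a helper of iron-sulfur cluster assembly in mitochondria (0.72 ± 0.16), were all called. Mir703 and Morf4l1b complete the set, at 0.81 ± 0.19 and 0.71 ± 0.11, and are uncertain. Mir703 is a microRNA locus, and these are RNA-seq values of a short feature. Morf4l1b is a near copy of another gene, and reads could be split between both. Shprh, the largest rise of the set, is described with age below.

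Of 77 ribosomal protein genes tested, grouped by symbol after their values were seen, 9 were called higher and 0 lower, 72 were above 0 and the median was 0.53. Over all genes tested, 68 of 11750 were called higher, 5876 were above 0 and the median was 1.07e-04. Rpl4, a protein of the large subunit, was at 139, 211, 174, 132 and 154 FPKM at onset and at 212, 246, 244 and 225 FPKM in early disease (0.53 ± 0.12, adjusted p = 0.0248). The highest onset library was again library 2, just under the lowest early one. Rpl41 (0.87 ± 0.17, adjusted p = 0.0142) and Rps2, a protein of the small subunit (0.93 ± 0.20, adjusted p = 0.0248), were higher too, with onset library 2 at 288 and 97.1 FPKM inside their early ranges of 273 to 405 and 79.5 to 136 FPKM. Ribosomal protein genes have many processed pseudogenes, so their reads could be split between copies, and how the submitters counted is unknown. In WT mice the same 77 genes had a median of 0.27 between the ages of onset and end stage.

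Other translation genes were chosen after their values were seen as well. Ybx1, an RNA-binding protein that packs messenger RNA, was at 117, 143, 110.4, 107 and 108 FPKM at onset and at 184, 201, 179 and 190.1 FPKM in early disease. All early libraries lay above all onset libraries, and the difference of 0.69 ± 0.10 had an adjusted p of 0.0011. Eef1a1, the elongation factor that brings transfer RNA to the ribosome, was higher by 0.74 ± 0.17 (adjusted p = 0.0271) and Eif3f, a subunit of an initiation factor, by 0.56 ± 0.12 (adjusted p = 0.0248). They were the only genes called of 8 elongation factor genes (median 0.33) and of 47 initiation factor genes (median 0.11, 32 above 0). Of 74 mitochondrial ribosomal protein genes 0 were called, with a median of 0.08, and 8 of them had an unadjusted p under 0.05, all higher. Of all 11750 genes, 68 were called higher and 792 were higher at an unadjusted p under 0.05.

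Genes of the response to misfolded protein and to oxidation had few calls and small differences. Of 14 genes of the unfolded protein response 2 were called higher, with all 14 above 0 and a median of 0.40. With onset libraries 2, 3 and 5 only the median was -0.015 (7 of 14 above 0) and with library quality weights -0.06 (6 of 14 above 0), with 2 called higher in both, so that the direction of the list turned, and 9 were called with the marker score terms. Ddit3, which encodes the stress transcription factor CHOP, was at 5.95 to 8.12 FPKM at onset and at 9.22 to 11.6 FPKM in early disease (0.51 ± 0.11, adjusted p = 0.0248). Trib3, a pseudokinase that CHOP induces, went from 1.15 ± 0.81 to 2.85 ± 1.07 FPKM (0.89 ± 0.21, adjusted p = 0.0353). Atf5, a transcription factor of mitochondrial stress, was at 0.27 to 1.15 FPKM at onset and at 1.27 to 2.62 FPKM in early disease (0.87 ± 0.19, adjusted p = 0.0248). Of 19 antioxidant genes 1 was called, Prdx1, which removes peroxides (0.96 ± 0.21, adjusted p = 0.0248), and Hmox1, which breaks down heme, had a difference of 1.43 ± 0.43 (adjusted p = 0.1095). The count for that list was 4 without onset library 2, 7 with onset libraries 2, 3 and 5 only and 8 with library quality weights, all higher. With the marker score terms 9 were higher and 1 lower. Over all genes tested, these fits in turn called 358 of 11763, 1831 of 11738, 2293 of 11750 and 1561 of 11750 higher. The fit with the marker score terms also called 1477 lower. Mouse Sod1 was at 14.1 to 50.2 FPKM at onset and at 28.7 to 56.7 FPKM in early disease (0.63 ± 0.25, adjusted p = 0.2512).

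The genes that fell were of moderate level, and they fell by little. Nr3c1, the glucocorticoid receptor, was at 14.3, 16.7, 24.6, 16.5 and 19.2 FPKM at onset and at 10.65, 12.0, 11.6 and 8.97 FPKM in early disease (-0.69 ± 0.17, adjusted p = 0.0452). Stat5b, a transcription factor of cytokine receptors, was at 10.4, 9.76, 11.0, 12.3 and 22.4 FPKM at onset and at 5.35 to 7.56 FPKM in early disease (-0.91 ± 0.20, adjusted p = 0.0248). Neither gene overlapped between the stages, and onset library 5 was the high one for Stat5b. Plcg1, a phospholipase of receptor signalling, went from 8.32 ± 1.26 to 4.38 ± 1.09 FPKM (-0.80 ± 0.18, adjusted p = 0.0282). Ppp1r3d, a glycogen-targeting subunit of protein phosphatase 1, went from 10.9 ± 4.58 to 4.44 ± 0.815 FPKM (-1.07 ± 0.24, adjusted p = 0.0248).

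Further genes of the set fell by 0.68 to 0.88 on the log2 scale. Kdm5b, a histone demethylase, fell by 0.84 ± 0.20 (adjusted p = 0.0338), and Camta2, a calmodulin-binding transcription activator, by 0.72 ± 0.17 (adjusted p = 0.0324). Dhx29, a helicase of translation initiation, fell by 0.77 ± 0.14 (adjusted p = 0.0102). Avl9 (-0.88 ± 0.17), Synj1, a lipid phosphatase of endocytosis (-0.73 ± 0.18), Trappc8, a subunit of the same tethering complex family as Trappc10 (-0.71 ± 0.17), and 6820431F20Rik (-0.68 ± 0.15) were also lower. All of these had early libraries below onset libraries by the rule that chose them.

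**Figure D4:**
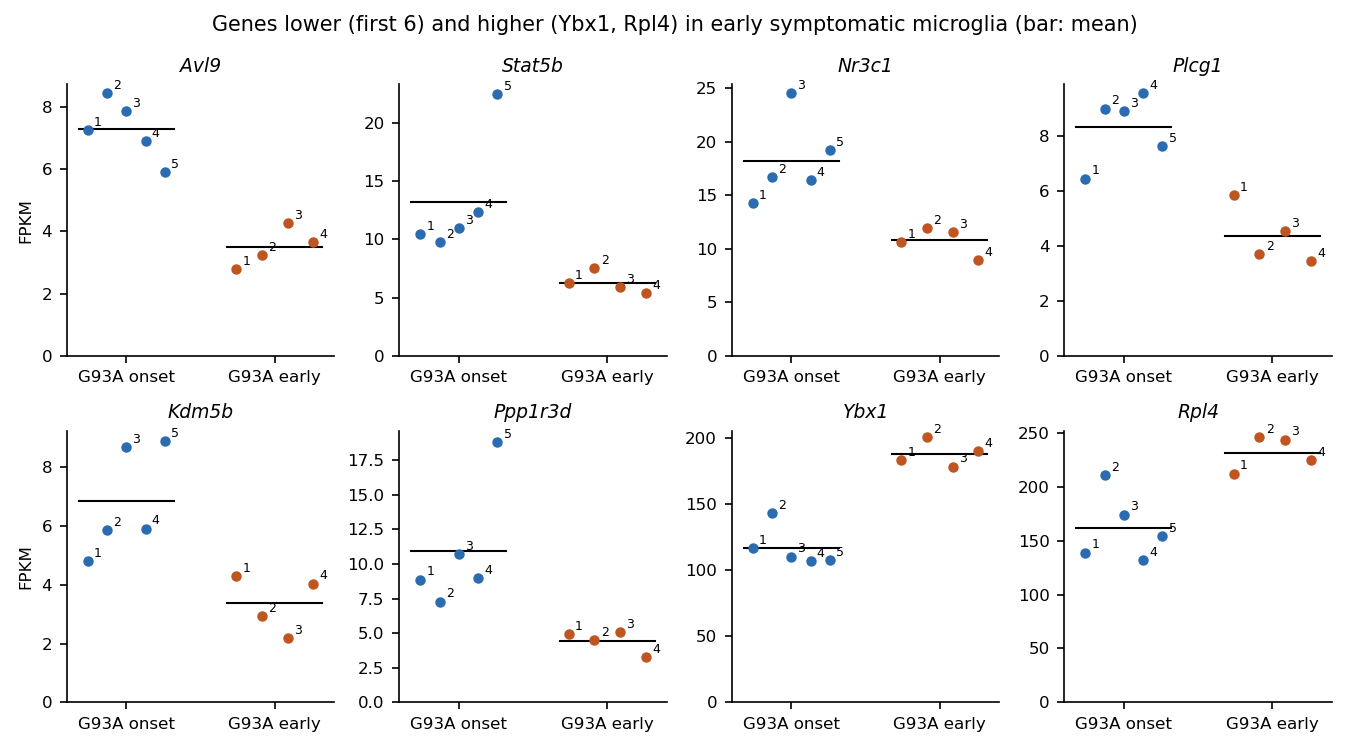
FPKM of 6 genes that fell and of Ybx1 and Rpl4, which rose, in each of the 5 onset and 4 early symptomatic libraries, numbered by replicate, with group means as bars. The early libraries lie below all onset libraries for the first 6 genes and above them for Ybx1 and Rpl4.

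Some called genes were higher in the older animals of all 3 genotypes. Shprh (chromosome 10, 11149426 to 11215265), a ubiquitin ligase and helicase of DNA repair, was at 2.91, 3.93, 6.78, 3.94 and 4.80 FPKM at onset and at 15.3, 18.0, 13.8 and 14.7 FPKM in early disease (1.62 ± 0.19, adjusted p = 4.5e-05), and it was called in 22 of 23 alternatives. Tlr9 (chromosome 9, 106222598 to 106226876), the endosomal receptor for unmethylated CpG DNA, was at 0.02 to 0.75 FPKM at onset and at 1.94, 4.61, 3.22 and 2.02 FPKM in early disease (1.57 ± 0.22, adjusted p = 0.000462). These were the only 2 of the 11750 genes for which all 16 libraries of the older groups (G93A early and end stage, WT and B6 of end-stage age) lay above all 17 younger ones, and 0 genes had the reverse. Shprh was at 9.59 to 19.7 FPKM in the older and at 1.56 to 6.78 FPKM in the younger libraries, and Tlr9 at 0.90 to 4.93 and at 0.02 to 0.75 FPKM. Both were called in WT mice too, with changes of 2.14 and 1.79 from the age of onset to that of end stage.

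The start of Tlr9 is shown because it is a receptor gene that was higher in older microglia of all genotypes. The RefSeq window is chr9:106222348-106222647 of GRCm38.p6 on the plus strand, with TGACTCA or TGAGTCA (AP-1) and GAGGAAGT (PU.1, the factor of the myeloid lineage) in capitals, searched on both strands with no overlap.
Tlr9: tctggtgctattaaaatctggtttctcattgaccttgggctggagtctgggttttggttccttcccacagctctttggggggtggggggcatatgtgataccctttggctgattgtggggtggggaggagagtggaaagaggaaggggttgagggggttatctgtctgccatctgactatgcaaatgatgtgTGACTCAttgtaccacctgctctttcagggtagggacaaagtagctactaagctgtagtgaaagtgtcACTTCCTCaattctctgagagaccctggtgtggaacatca
The AP-1 letters begin at base 193 and the PU.1 letters, on the minus strand, at base 261. A PU.1 match was found in 3.2% of all windows and in 2 of 12 windows of the 9 toll-like receptor and co-receptor genes with an entry, and an AP-1 match in 1 of those 12. Tlr9 was the 1 gene called of 13 tested in that list, whose median was 0.70, and it was -0.35 with onset libraries 2, 3 and 5 only and -0.37 with library quality weights.

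Fn3krp and Pde7b were also called in both the G93A and the WT comparison and were named after their values were seen. Fn3krp, a kinase that removes sugars from glycated protein, was at 0.26, 0.09, 0.17, 0.23 and 4.57 FPKM at onset and at 4.31, 2.05, 4.42 and 7.52 FPKM in early disease (1.69 ± 0.33, adjusted p = 0.0122). Onset library 5 alone was at the level of the older animals, while the other 16 younger libraries ran from 0.09 to 0.41 FPKM and the 16 older ones from 2.05 to 10.5 FPKM. The labels give each library a running number, 1 to 19 in the other younger libraries and 20 to 39 in the older ones. Among these libraries the number and age cannot be told apart, for Shprh and Tlr9 as well. Onset library 5 is a younger library with a far higher running number than any of them. It stayed at the younger level for Shprh (younger libraries at most 6.78 FPKM, older ones at least 9.59 FPKM). It did so for Tlr9 too (at most 0.75 and at least 0.90 FPKM), but not for Fn3krp. This rests on 1 library, and the part of running number or age in these levels was not tested. Pde7b, a phosphodiesterase that breaks down cyclic AMP, was at 0 to 0.54 FPKM at onset and at 5.31, 1.27, 3.65 and 7.92 FPKM in early disease (1.99 ± 0.34, adjusted p = 0.005).

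**Figure D5:**
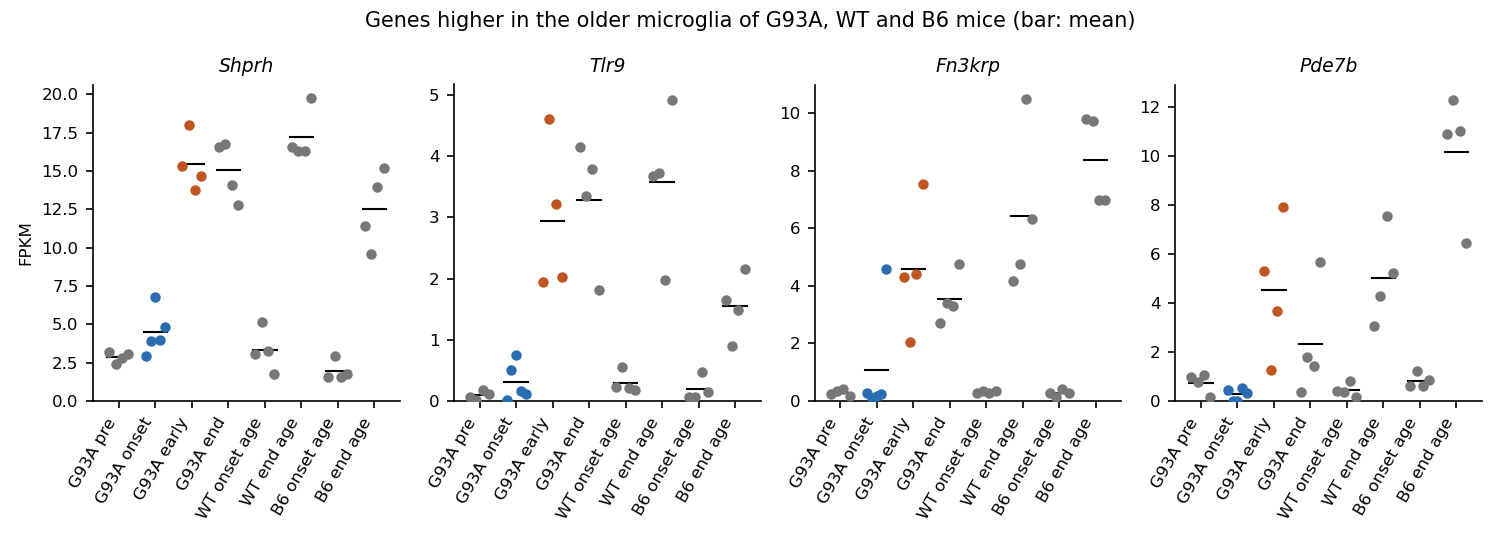
FPKM of Shprh, Tlr9, Fn3krp and Pde7b in all 33 non-grafted microglia libraries, grouped by genotype and stage or age, with group means as bars. Shprh and Tlr9 are higher in every older than in every younger library, and onset library 5 is the high point for Fn3krp at onset.

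A further set of genes was high in early libraries 1, 3 and 4 and low in early library 2, as were the astrocyte and oligodendrocyte markers. Timp1, an inhibitor of matrix metalloproteases, was at 0.42, 0.14, 0, 0.29 and 0.21 FPKM at onset and at 6.43, 0.14, 2.53 and 8.03 FPKM in early disease (1.75 ± 0.37, adjusted p = 0.0188). It was tested in only 18 of 23 alternatives and called in 17. Without early library 1, 3 or 4 it fell under the filter of a mean of 1 FPKM. Its call thus rests on libraries that also brought it into the test. Cela1, an elastase-like protease named after its values were seen, was at 0.61 to 5.93 FPKM at onset and at 3.83 FPKM in early library 2 and up to 24.8 FPKM in the other early libraries (1.83 ± 0.40, adjusted p = 0.0248). Gfap, the filament protein of astrocytes, was at 4328, 166, 1793 and 4183 FPKM in early libraries 1 to 4 and at 27.7 to 1378 FPKM at onset (2.57 ± 0.91, adjusted p = 0.1863). The secreted inhibitor Serpina3n, also named after its values were seen (2.63 ± 0.68, adjusted p = 0.0611), and the heat shock protein Hspb1 (2.67 ± 0.72, adjusted p = 0.0693) had the same order among early libraries. So did the complement gene C4b, at 34.2, 3.93, 12.0 and 24.2 FPKM (1.38 ± 0.42, adjusted p = 0.1085). Early library 2 had the lowest summed astrocyte markers of its group, at 636 FPKM, and the highest microglia markers. Onset libraries 1 and 4 had higher astrocyte sums than any early library, at 10450 and 10928 FPKM. Timp1 was at 0.42 and 0.29 FPKM in them, its highest values at onset, and Gfap at most at 1378 FPKM. Which cells these transcripts came from was not tested. In bulk samples more cells of a type and more RNA per cell cannot be told apart.

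The change in G93A mice passed a test against that of WT mice between about the same ages for 1 gene. With the WT change taken off, 1 of 11750 genes was called (0.00851%), while 1399 had an unadjusted p under 0.05. That gene was the feature Oaz1 // Oaz1-ps, an inhibitor of polyamine synthesis counted with its pseudogene, whose reads are therefore uncertain. It was at 75.5 ± 6.67 and 68.8 ± 3.48 FPKM at onset and in early disease, and at 59.6 ± 3.86 and 94.9 ± 5.65 FPKM in WT mice at the 2 ages, a difference of -0.79 (adjusted p = 0.04). It was no longer called after median-ratio scaling, with the marker score terms, without trend, with its 4 groups alone, without onset library 3, without early library 1, 3 or 4, or without any one WT library other than replicate 3 of the older age. With the replicate block the 1 gene called was a different one. With B6 in place of WT, 0 genes were called (limma) and 620 had an unadjusted p under 0.05.

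Genes of smallest p in this contrast after Oaz1 // Oaz1-ps did not pass. They include Cpeb1, which controls messenger RNA tails (2.10, adjusted p = 0.15), Atf5 (1.29), Ccdc126 (-1.51) and Zbed5 (-1.22). Of the 99 genes called between onset and early disease, 77 changed in the same direction in WT mice from the age of onset to that of end stage. With the WT change taken off, 94 of the 99 had the same sign and 62 had an unadjusted p under 0.05. This contrast contains the difference by which the 99 were chosen, so these counts are no separate evidence. Gpnmb kept a difference of 1.61 (adjusted p = 0.49), and Spp1 had one of -1.26 (adjusted p = 0.58), as WT mice went from 19.9 ± 5.51 to 589 ± 354 FPKM. In the WT group of end-stage age 2 of 4 libraries held S100a8 at 32464 and 16679 FPKM. Between early symptoms and end stage of G93A mice, 0 of 11750 genes were called (limma) and 339 had an unadjusted p under 0.05, with Gpnmb at a log2 difference of 1.28 and Igf1 at 0.44.

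Mice of the onset group differed more from each other than those of the early group. The SD of log2(FPKM + 1) was larger at onset for 10940 of 11750 genes (93.11%), with a median SD of 0.65 at onset and 0.29 in early disease. With onset libraries 2, 3 and 5 only, the share was 55.24%. It was larger at onset for all 28 disease-associated and all 20 homeostatic genes.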

How the data were processed

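RNA-seq values of CD11b-selected spinal cord microglia were analysed. The authors deposited FPKM with decimal commas in 1 table of 58976 features, 23297 of them with a gene symbol, which were used. All 51 columns were assigned from the labels, and 0 were left unused. Per the submitters' processing notes, FastQC, Picard, SAMtools, DESeq2, R 3.2.5 and build mm10 were involved. How reads were aligned and counted, and whether by strand, is unknown here. Low FPKM values showed no whole-read steps, so depth is unknown and no counting interval is given.

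FPKM are not counts, so log2(FPKM + 1) was fitted with limma 3.58.1 in R 4.3.3 (group means, eBayes with trend) on all 33 non-grafted microglia libraries in 8 groups, keeping genes with a mean of at least 1 FPKM and calling at a Benjamini-Hochberg adjusted p under 0.05. Log2 differences are on this scale, which understates changes of low genes, and carry SE. FPKM carry SD. The fit was tested on simulated data with the same spread in every group, so that test does not cover the wider spread at onset. The mitochondrial share had an exact two-sided permutation test.

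Named genes are the 12 largest rises and falls called without overlap at a group mean of at least 5 FPKM, up to 4 members of a list, a set of microglial genes and the genes of smallest p in the WT contrast. The text gives only some of the list members the rule allows, and 1 of the falls is not reported here. A few others are marked as chosen after their values were seen. The libraries, the lists and these rules were chosen with earlier results of these data known, and lists are described by counts and medians, with no test of a list. Alternatives were other pseudocounts, filters and scaling, fewer libraries, library weights, marker score terms and a replicate block. Figures used matplotlib 3.10.9 and promoters came from RefSeq.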

Additional observations from a re-analysis of the deposited data

Results flagged for a closer look

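In 164 groups of values of the named genes, 11 held 1 library whose gap to the nearest other was large against the range of its group. About 1 in 20 groups is picked out by chance. Of the 11, 8 were at onset, 5 of them library 2 and 3 library 5. Mamdc2, Rpl41, Eef1a1 and Fn3krp, which are among these, were chosen after their values were seen. Their flags are therefore no separate evidence.

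Onset library 2 was picked out for Atp6v0d2 (26.1 FPKM, others at most 1.16), Colec12 (54.7 FPKM, others at most 3.83), Mamdc2 (13.4 FPKM, others at most 0.87), Rpl41 (288 FPKM, others at most 182) and Eef1a1 (424 FPKM, others at most 245). Onset library 5 was picked out for S100a8 (39129 FPKM, others at most 346), Stat5b (22.4 FPKM, others at most 12.3) and Fn3krp (4.57 FPKM, others at most 0.26).

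Among early libraries, library 3 stood apart for Gpnmb (764 FPKM, others at most 453) and library 1 for Hebp1 (6.80 FPKM, others at least 8.84). Early library 2 stood apart for Mbp, the myelin gene (1315 FPKM, others at least 8030.4). The change of Oaz1 // Oaz1-ps in G93A mice less that in WT mice was -0.79 and passed the test of the difference.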

How the results depend on the processing

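Against 99 genes called (68 higher, 31 lower), fits with other pseudocounts, filters or scaling gave 84 to 139. It was 0 when the fit held the 9 libraries alone, 3232 with library quality weights (2293 and 939), 3038 with marker score terms (1561 and 1477), 2940 with onset libraries 2, 3 and 5 only (1831 and 1109), 5981 with onset libraries 1 and 4 only (3035 and 2946) and 660 with onset libraries 1, 3 and 4 only (453 and 207), the last 2 settings chosen after seeing the data. Of the 99, 99, 94, 92 and 93 were shared with the last 4 of these, and 64 with the weights. Leaving out 1 library gave 25 to 491 genes, 18 to 358 higher and 7 to 133 lower. The direction of all 99 held in every fit in which they were tested, but each fit reuses libraries by which the 99 were chosen. The cause of these shifts was not tested.

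The replicate block left 38 genes called (24 higher and 14 lower, 30 shared). Same-numbered libraries correlated at 0.3643, 0.6879, -0.4631 and 0.809 in their deviations. The labels tie no number to a shared litter or day, and 1 of the 4 lies below 0, so the numbers were not taken as pairs.

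With the WT change taken off, the 1 call became 2 with a pseudocount of 0.1 or a mean of at least 5 FPKM, 3 without a filter, 0 after median-ratio scaling, with its 4 groups alone, with marker score terms, without trend or with B6, 8152 with weights, 5709 with onset libraries 2, 3 and 5 only, 47 with onset libraries 1 and 4 only and 28 with onset libraries 1, 3 and 4 only. Leaving out 1 library gave 0 to 28. The mitochondrial difference ran from -0.78 to 2.05 percentage points without 1 library. The share of genes with a larger SD at onset was 55.24% with onset libraries 2, 3 and 5 only, a setting added for this share after seeing the data.

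Signs of genes that had not passed the threshold turned in some fits. With library quality weights the log2 difference was -0.11 for Trem2, -0.0839 for Tyrobp, -0.94 for Cx3cr1, -0.80 for Itgam, -0.55 for Ptprc, -0.0562 for Fcrls and 0.08 for S100a8. With onset libraries 2, 3 and 5 only it was -0.84 for Cx3cr1, -0.87 for Itgam and -0.65 for Ptprc. With onset libraries 1 and 4 only it was 0.78 for P2ry12, 0.99 for Tmem119, -0.11 for Sod1, -1.91 for Mbp and 1.02 for S100a8, and with onset libraries 1, 3 and 4 only -0.16 for Mbp and 0.46 for S100a8. Marker score terms gave 0.12 for Tmem119 and -0.20 for Mbp. S100a8 was at 0.74 with the replicate block, without libraries above 10000 FPKM of it, and without onset library 5. Leaving out 1 library gave -0.73 to 0.15 for Tmem119, -0.37 to 0.40 for Cx3cr1, -0.28 to 0.42 for Itgam, -0.0387 to 0.73 for Ptprc, -0.15 to 1.25 for Mbp and -1.52 to 0.74 for S100a8. Depth is unknown, so how far counting error limits genes under about 1 FPKM cannot be given.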

Other observations

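Onset library 5 held S100a8 at 39129 FPKM but its partner S100a9, which forms a dimer with it, at 1.80 FPKM. In the other 32 microglia libraries the ratio of S100a9 to S100a8 ran from 0.762 to 1.21. The ribosomal gene Rps3a1 was at 3.32 FPKM in that library and at 47.1 to 102 FPKM in the other 32. These values were chosen after they were seen, and their cause was not tested.

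Onset library 2 correlated with the early libraries at 0.8805 to 0.9833 (Pearson's r over genes, which are not independent), against 0.8155 to 0.9675 for onset library 3 and 0.6699 to 0.9079 for onset libraries 1, 4 and 5. Of 22 cell cycle genes 0 were called between the stages (limma; 1 had an unadjusted p under 0.05), with a median of -0.16, and of 25 nuclear genes of oxidative phosphorylation 0 were called (1 with an unadjusted p under 0.05), with a median of 0.20. With onset libraries 2, 3 and 5 only, 20 of those 25 were called higher and 4 of the 22 lower. In that fit 1831 of all 11738 genes tested were called higher and 1109 lower.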
